A study of Mus musculus with 6 samples.

Results

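Cyclic nucleotide phosphodiesterases are the enzymes that degrade cAMP and cGMP. The set described here holds 10 phosphodiesterase genes, Pde1a, Pde1b, Pde1c, Pde2a, Pde3b, Pde4a, Pde4b, Pde4d, Pde7b and Pde10a, out of 18193 genes with a probe set of their own on the arrays. They were chosen by name, with earlier results of these data known. All 30 probe sets whose single annotated symbol was one of these names were taken. Of these, 13 were on chip A and 17 on chip B, out of 45137 on both chips. A probe set is a group of short probes that together give 1 signal for a transcript or part of one. Pde1c and Pde4b had 6 probe sets each, Pde10a had 5, Pde2a and Pde7b had 3, Pde1a and Pde4d had 2, and Pde1b, Pde3b and Pde4a had 1.

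The study looked for transcripts enriched in olfactory sensory neurons (OSNs), which detect odours in the nose. All 3 populations came from OMP-GFP mice, in which GFP stands in place of the coding region of Omp, a gene used by mature olfactory and vomeronasal neurons. They were GFP-positive OSNs collected by fluorescence-activated sorting (about 500000 cells), the olfactory epithelium that remained without those neurons (about 2500000 cells, here the residual epithelium), and brain without the olfactory bulb. The marker also labels vomeronasal neurons, and immature OSNs do not carry it, so the residual epithelium can still hold neurons of other stages. Whether 1 or both Omp alleles were replaced, the age and sex of the mice and the number pooled are not stated in the sources used here. Each population was measured on 1 array of each chip, 6 arrays in all, so no difference below has a replicate check and no p-value is given.

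Odour transduction in OSNs runs on cAMP. An odorant receptor activates a G protein and an adenylyl cyclase, cAMP opens a cyclic nucleotide-gated channel in the cilia, and phosphodiesterases end the signal by hydrolysing cAMP. The families differ in what they degrade and in what controls them. PDE1 enzymes are switched on by calcium and calmodulin, PDE2A is stimulated by cGMP, PDE3B is inhibited by cGMP, PDE4 and PDE7 enzymes are selective for cAMP, and PDE10A degrades both nucleotides. In OSNs, PDE1C is known from the cilia and PDE4A from the rest of the cell, while PDE1B and PDE10A are known from the medium spiny neurons of the striatum.

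Signals are on a linear scale in arbitrary units, and only the same probe set is compared between populations. Before ratios were taken, a floor was set at the lower quartile of each chip (70.6 for chip A, 79.9 for chip B), so a ratio with its lower signal under the floor is a bound, written "at least". A probe set counted in a comparison if 1 or both of its signals reached the chip median (222.2 for chip A, 243.6 for chip B). For scale, log2 ratios of 99 probe sets present on both chips differed between the chips with an SD of 0.25 for OSNs over residual epithelium, 0.29 for OSNs over brain and 0.34 for residual epithelium over brain. The ratios on chip A also stood apart from those on chip B by a mean of 0.23, -0.19 and -0.42 in this order, an offset larger than the SD for residual epithelium over brain. For probe sets of 1 gene on 1 chip the SDs were 0.59, 0.75 and 0.74. Neither measures the spread between animals.

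Marker genes were read on the same arrays. Omp (1422200_at), by which the cells were sorted, had a residual epithelium signal of 2.25% and a brain signal of 1.82% of that in OSNs, and Cnga2 (1422181_at), a channel subunit of mature OSNs, had 5.57% and 0.61%. The sorted cells also gave signal for genes of other epithelial cells. Cyp2g1, an enzyme of sustentacular cells (1449565_at), had 3821.8 in the OSNs, 2657.3 in the residual epithelium and 102.7 in the brain, and of 4 sustentacular genes 3 stayed within 2-fold of residual epithelium and Notch2 was lower. All 3 counted genes of Bowman glands were at least 2-fold lower in OSNs (18.7% of all genes), yet Bpifa1 (1420347_at) still had 3432.4 there beside 12935.6 in residual epithelium. Their part in the phosphodiesterase signals was not tested. Blood and marrow genes were high in the residual epithelium. The summed signal of 6 neutrophil and marrow genes was 69472.4 there, 1294 in OSNs and 785.2 in brain. Ltf was 1 of these 6 and also 1 of the 3 counted Bowman gland genes. In bulk RNA, fewer cells of a type and less RNA per cell cannot be told apart.

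Of the 30 probe sets, 26 reached the chip median in at least 1 population, and 4 did not (Pde1a 1431625_at, Pde4b 1446577_at and 1447718_at, and Pde10a 1432490_a_at). Among the 26, the highest signal was in brain for 12, in OSNs for 11 and in residual epithelium for 3. Among all 28605 such probe sets, 36.0% were highest in brain, 29.6% in OSNs and 34.3% in residual epithelium. The members therefore fell into genes high in OSNs (Pde7b, Pde1c, Pde4a and 1 probe set of Pde4d), genes high in brain (Pde10a, Pde1b, Pde1a, most probe sets of Pde2a and Pde4b, and the other probe set of Pde4d), and Pde3b, high in residual epithelium.

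**Figure D1:**
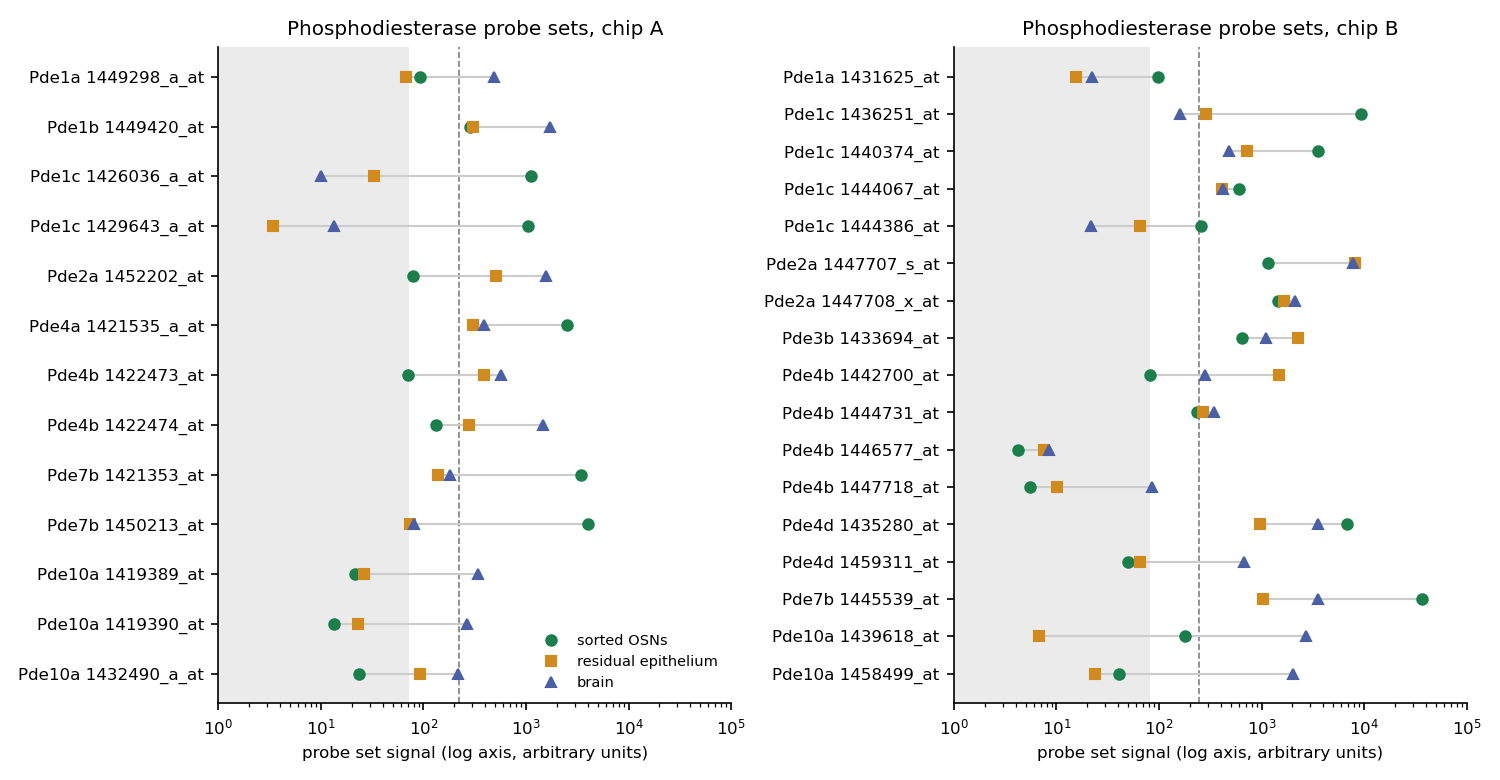
Signal of each of the 30 phosphodiesterase probe sets in sorted OSNs (circles), residual epithelium (squares) and brain (triangles), 1 array each, on a log axis in arbitrary units, for chip A (left) and chip B (right). The grey band lies below the floor and the dashed line is the chip median. OSN circles stand far to the right of both other symbols for all 3 Pde7b probe sets and for 3 of the 6 Pde1c probe sets, and brain triangles do so for Pde10a.

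Pde7b, a cAMP-selective enzyme, was higher in OSNs than in both other populations on all 3 of its probe sets, over 2 chips. Probe set 1450213_at had a signal of 4032 in the OSNs, 74.7 in the residual epithelium and 80.9 in the brain. Probe set 1421353_at had 3472.2 in the OSNs, 137.2 in the residual epithelium and 179.9 in the brain. On chip B, 1445539_at had 36353 in the OSNs, 1032.9 in the residual epithelium and 3551.7 in the brain. In each case the OSN array stood alone above the other populations. The OSN signal was 54.0-fold, 25.3-fold and 35.2-fold that of residual epithelium in this order. The first of these rests on a residual signal just above the floor of 70.6, and its log2 ratio of 5.75 was 4.78 with the floor at percentile 40 and 4.56 with a pseudocount of 100. Against brain the folds were 49.8, 19.3 and 10.2. The 3 log2 ratios over residual epithelium spanned 1.09 units, against a median span of 0.76 among 1288 genes with 3 counted probe sets. Over brain they spanned 2.28 units, wider than in 88.3% of such genes. The residual epithelium kept between 1.85% and 3.95% of the OSN signal of Pde7b, a range that holds the 2.25% of Omp. Residual epithelium and brain were alike on chip A, where both signals lay below the chip median. On chip B brain was 3.44-fold higher than residual epithelium.

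Pde1c, the calmodulin-dependent enzyme of OSN cilia, was also highest in OSNs on all 6 probe sets, but the size differed widely. Probe set 1436251_at had a signal of 9385.3 in the OSNs, 285.8 in the residual epithelium and 161.6 in the brain. Probe set 1440374_at had 3516 in the OSNs, 719.2 in the residual epithelium and 479.2 in the brain. These signals gave ratios over residual epithelium of 32.8-fold and 4.89-fold, and over brain of 58.1-fold and 7.34-fold. On chip A, 1426036_a_at had 1124.3 in the OSNs, 32.8 in the residual epithelium and 10 in the brain, and 1429643_a_at had 1049.6, 3.4 and 13.3 in the same order. Both lay below the floor outside OSNs, so OSNs were at least 15.9-fold and at least 14.9-fold higher than either other population. By the naming of the array's maker, the ending _a_at marks probes shared by alternative transcripts of a gene.

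The other Pde1c probe sets gave smaller ratios or bounds. Probe set 1444386_at had 256.6 in OSNs, just above the chip median, and 65.9 in residual epithelium and 21.9 in brain, both under the floor, so its ratio was at least 3.21-fold. Probe set 1444067_at had 603.6 in the OSNs, 413.7 in the residual epithelium and 423.5 in the brain, a ratio of 1.46-fold and 1.43-fold. The 6 log2 ratios over residual epithelium ran from 0.55 to 5.04, a span of 4.49, and 97.2% of the 71 genes with as many counted probe sets had a smaller span (median 1.26). Which transcripts each probe set reads is not known here, so these spans cannot be assigned to isoforms. All 6 had the same sign, as did the probe sets of 42.3% of those genes. However, 1426036_a_at, 1429643_a_at and 1444386_at were counted through the OSN array alone, which fixes their sign.

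Pde4a, the cAMP-selective enzyme of the OSN dendrite and cell body, was read by 1 probe set, 1421535_a_at. Its signal was 2493.9 in the OSNs, 303 in the residual epithelium and 385.5 in the brain, all above the chip median. OSNs were 8.23-fold higher than residual epithelium and 6.47-fold higher than brain. Both ratios exceeded those of at least 97.7% of the counted probe sets of chip A. Residual epithelium and brain differed by 1.27-fold, a log2 ratio of -0.35, close to the spread between chips of 0.34 and under their offset in size.

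Pde4d, a close relative of Pde4a, gave opposite answers for OSNs against brain from its 2 probe sets. Probe set 1435280_at had a signal of 6841.9 in the OSNs, 969.4 in the residual epithelium and 3555.8 in the brain. OSNs were thus 7.06-fold higher than residual epithelium but only 1.92-fold higher than brain. Probe set 1459311_at had 49.7 in the OSNs and 65.7 in the residual epithelium, both under the floor, and 671.8 in brain, which was at least 8.41-fold higher than either. The log2 ratios over brain, 0.94 and -3.07, lay 4.02 units apart, further than in 99.5% of the 3284 genes with 2 counted probe sets. The ratio of 0.94 was 0.60 under quantile normalization and 0.60 with arrays scaled on shared probe sets. The brain over residual direction was the same on both, at 3.67-fold and at least 8.41-fold.

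For Pde7b, Pde4a and Pde1c, picked as the genes highest in OSNs on every probe set, the bases before an annotated transcript start are shown. The sizes of their ratios differed, and a shared control of these genes was not tested. RefSeq promoter entries (GRCm38.p6) were matched for 9 of the 10 members, with 26 starts in all, 1 for Pde7b and 3 each for Pde1c and Pde4a. Each stretch is the 250 bases before a start, 5′ to 3′ on the gene's strand. It is the only start listed for Pde7b, the middle of 3 for Pde4a and the first of the 3 listed for Pde1c. The Pde4a start was chosen as the only start of that gene with a motif match. All 3 stretches lie inside the annotated spans of their genes, chr10:20397052-20725078, chr9:21165700-21213248 and chr6:56069798-56652510 in this order. None is at the outer end of its gene, and which start these cells use is not known here. Capitals mark matches to 3 motifs searched on both strands, namely TCCCNNGG as a core of the sites of EBF factors, TGACGTCA for the cAMP response element, and TAATTA for homeodomain factors. No 2 of these matches overlapped.
Pde7b (chr10:20548329-20548578, minus strand): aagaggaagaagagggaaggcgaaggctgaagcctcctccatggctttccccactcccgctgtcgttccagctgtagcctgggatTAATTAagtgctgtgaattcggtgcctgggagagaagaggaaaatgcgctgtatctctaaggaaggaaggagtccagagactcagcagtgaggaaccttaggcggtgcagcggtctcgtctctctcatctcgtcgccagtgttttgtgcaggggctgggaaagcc
Pde4a (chr9:21183851-21184100, plus strand): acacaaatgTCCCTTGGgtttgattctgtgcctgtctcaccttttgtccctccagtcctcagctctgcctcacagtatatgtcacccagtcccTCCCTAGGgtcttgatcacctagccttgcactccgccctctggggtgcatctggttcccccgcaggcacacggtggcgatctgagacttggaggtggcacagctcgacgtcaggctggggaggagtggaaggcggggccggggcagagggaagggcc
Pde1c (chr6:56369635-56369884, minus strand): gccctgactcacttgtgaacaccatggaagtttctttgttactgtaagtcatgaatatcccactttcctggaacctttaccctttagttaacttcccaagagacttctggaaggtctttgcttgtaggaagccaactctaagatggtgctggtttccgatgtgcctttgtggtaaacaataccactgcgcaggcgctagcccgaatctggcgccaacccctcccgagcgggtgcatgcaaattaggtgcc
The Pde4a stretch held the EBF core at 241 and 157 bases before the start (TCCCTTGG and TCCCTAGG), the Pde7b stretch held TAATTA at 165 bases, and the Pde1c stretch held none of the 3. The EBF core was in 4 of the 26 member windows, at starts of Pde4a, Pde4b and Pde10a, and in 19.0% of all 32851 windows of this length. TAATTA was in 1 member window and in 4.84% of all, and TGACGTCA was in no member window and in 1.55% of all. The core thus also lay before starts of members that were low in OSNs. The GC content of the 3 stretches was 55.2% for Pde7b, 61.2% for Pde4a and 49.6% for Pde1c, beside a median of 52.4% over all windows.

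Pde10a, the dual-specificity enzyme of striatal neurons, was a brain transcript in these data. On chip B, 1439618_at had a signal of 179.2 in the OSNs, 6.8 in the residual epithelium and 2690.2 in the brain, and 1458499_at had 40.7, 23.6 and 2033.2 in the same order. Brain was 15.0-fold higher than OSNs on 1439618_at and at least 25.4-fold higher on 1458499_at. It was at least 33.7-fold and at least 25.4-fold higher than residual epithelium. On chip A, 1419389_at had 21.7, 26.4 and 341.2, and 1419390_at had 13.4, 23 and 265.6, so that brain was at least 4.83-fold and at least 3.76-fold higher than OSNs. These ratios are bounds set by the floor, so their size cannot be set against that on chip B. The remaining probe set, 1432490_a_at, had 23.6, 91.7 and 216.8 and was not counted, although brain was again the highest.

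Pde1b, a calmodulin-dependent enzyme of the same striatal neurons, had a signal of 286 in the OSNs, 301.9 in the residual epithelium and 1719.7 in the brain (1449420_at). Brain was 6.01-fold higher than OSNs and 5.70-fold higher than residual epithelium. OSNs and residual epithelium were alike, with a log2 ratio of -0.08 (0.13 under quantile normalization), inside the spread between chips of 0.25. Pde1a, the third calmodulin-dependent gene, had 93.3 in the OSNs, 67.8 in the residual epithelium and 488.4 in the brain (1449298_a_at). Brain was 5.23-fold higher than OSNs and at least 6.92-fold higher than residual epithelium. On chip B, 1431625_at had 97.3, 15.6 and 22.4 and was below the chip median throughout. The genes for calmodulin-dependent enzymes were thus divided, with Pde1c highest in OSNs and Pde1a and Pde1b highest in brain.

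Striatal neuron genes are markers of a part of the brain sample, and their levels stand beside those of Pde10a and Pde1b. Of 6 counted striatal genes, 5 were at least 2-fold higher in brain than in residual epithelium (18.9% of all genes). Against OSNs 3 were so (21.0% of all genes), while Drd2, a dopamine receptor, was 4.32-fold higher in OSNs than in brain. Drd1, Drd2 and Ppp1r1b against residual epithelium, and all 3 against OSNs, were counted through the brain array alone, which fixes their direction. Drd1, another dopamine receptor (1456051_at), had a signal of 6.6 in the OSNs, 12.3 in the residual epithelium and 831.9 in the brain. Over the 4 striatal genes of chip A the summed signal was 2504.1, 749 and 4072.5 in the same order, most of the OSN sum being Drd2. Their part in the phosphodiesterase values was not tested.

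Pde4b, a cAMP-selective enzyme that is also induced in white blood cells, had probe sets that ranked residual epithelium and brain in opposite orders. Probe set 1422474_at had a signal of 133.2 in the OSNs, 276.5 in the residual epithelium and 1450.3 in the brain, so brain was 5.25-fold higher than residual epithelium. Probe set 1442700_at had 80.9 in the OSNs, 1473.6 in the residual epithelium and 279.9 in the brain, so residual epithelium was 5.26-fold higher than brain. Probe set 1422473_at had 70.2 in the OSNs, 392.5 in the residual epithelium and 572.6 in the brain, and 1444731_at had 235.5, 268.5 and 344.3. Over the 4, the log2 ratio of residual epithelium to brain ran from -2.39 to 2.40, a span larger than in 98.8% of the 584 genes with 4 counted probe sets.

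OSNs had the lowest Pde4b signal on every probe set. Against residual epithelium, OSNs were lower by 18.2-fold on 1442700_at, by at least 5.56-fold on 1422473_at and by 2.08-fold on 1422474_at. The OSN signal of 1442700_at lay just above its floor of 79.9, and its log2 ratio of -4.19 was -3.13 with the floor at percentile 40. The 2-fold call of 1422474_at was lost with that floor (-0.92), with a pseudocount (-0.69) and with quantile normalization (-0.78). The OSN signal of 1422473_at was 70.2, just under the floor of 70.6. On 1444731_at the difference was 1.14-fold, a log2 ratio of -0.19, within the spread between chips. The 2 remaining probe sets had signals between 4.2 and 86.3 and were not counted. Marker genes of white blood cells were high in the same residual array. Tyrobp, a myeloid adaptor (1450792_at), had 178.6 in the OSNs, 4085.7 in the residual epithelium and 411.6 in the brain. Of the macrophage list 3 of 4 genes were counted and all 3 were lower in OSNs, and the summed signal of the 4 was 818.6 in the OSNs, 9400.4 in the residual epithelium and 3278.3 in the brain. All 3 measured lymphoid genes were lower in OSNs, with Ikzf1 and Cd79b under the floor there. Their part in the Pde4b signal was not tested.

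Pde2a, the cGMP-stimulated enzyme, was lower in OSNs on 2 of its 3 probe sets and is known from a separate class of olfactory neurons that use guanylyl cyclase D. Probe set 1447707_s_at had a signal of 1147.9 in the OSNs, 8120.5 in the residual epithelium and 7809.8 in the brain. Residual epithelium and brain were level (a log2 ratio of 0.06, or -0.41 with arrays scaled on shared probe sets), and OSNs were 7.07-fold and 6.80-fold lower. Probe set 1452202_at had 79.1 in the OSNs, 511.8 in the residual epithelium and 1556.6 in the brain, so OSNs were 6.47-fold and 19.7-fold lower, and residual epithelium was 3.04-fold lower than brain. Probe set 1447708_x_at had 1460.6, 1647.7 and 2106.4, and OSNs differed from residual epithelium by only 1.13-fold. By their endings, _s_at and _x_at, both chip B probe sets may hold probes that bind other transcripts as well. Of 3 markers fixed for guanylyl cyclase D neurons, only Car2, a carbonic anhydrase, had a probe set with a single symbol. Car2 (1448752_at) had 2633.3 in the OSNs, 9243.6 in the residual epithelium and 6269.2 in the brain, and whether these neurons gave the Pde2a signal was not tested.

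Pde3b, the cGMP-inhibited enzyme known from insulin signalling in fat and liver, was highest in residual epithelium. Its 1 probe set, 1433694_at, had a signal of 649 in the OSNs, 2286.5 in the residual epithelium and 1114.3 in the brain, all above the chip median. OSNs were 3.52-fold lower than residual epithelium and 1.72-fold lower than brain. Residual epithelium was 2.05-fold higher than brain. That last call was lost with a pseudocount in place of the floor, with ratios centred on their median and with arrays scaled on the probe sets shared by both chips. Under that last scaling the log2 ratio of OSNs over brain was -1.12, past 2-fold, against -0.78 as reported.

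Counted over probe sets, OSNs against residual epithelium gave 5 of 9 counted members at least 2-fold higher on chip A, where 12.5% of all counted probe sets were, and 5 of 11 on chip B, where 13.0% were. At least 2-fold lower were 3 on chip A and 3 on chip B, against 18.8% and 16.5% of all. Of the 20 counted, 10 reached the chip median in both populations, and the other 10 passed through 1 array, which fixes the direction of their ratio. Among the 10 that reached it in both, 5 were higher and 2 were lower. The share over all probe sets under this stricter filter was not computed. Of the 10 higher probe sets, 5 were of Pde1c and 3 of Pde7b, so they are not independent. The members were also chosen with earlier results of these data known, so these shares are no test of the gene family.

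Against brain, OSNs were at least 2-fold higher for 5 of 12 counted members on chip A (16.1% of all) and 4 of 14 on chip B (17.6% of all). They were at least 2-fold lower for 7 on chip A (22.0% of all) and 5 on chip B (21.7% of all). Only 9 of these 26 reached the chip median in both populations, and of those 3 were higher and 2 were lower in OSNs. The 12 lower probe sets therefore rest mainly on members that passed through the brain array. In the same way, the 9 higher ones rest mainly on members that passed through the OSN array. Here too the share over all probe sets that reached the median in both populations was not computed. Residual epithelium was at least 2-fold higher than brain for 0 of 8 counted members on chip A (21.2% of all) and 2 of 13 on chip B (20.1% of all), and lower for 6 (20.7% of all) and 5 (20.0% of all). Of these 21 members, 14 reached the chip median in both populations, and of those 2 were higher and 5 were lower. The other lower ones were counted through the brain array alone, which fixes their direction. The share over all probe sets under this filter was again not computed. The 2 higher probe sets were those of Pde3b and 1442700_at of Pde4b. The OSN comparisons share the OSN arrays, and all comparisons with brain share the brain arrays.

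**Figure D2:**
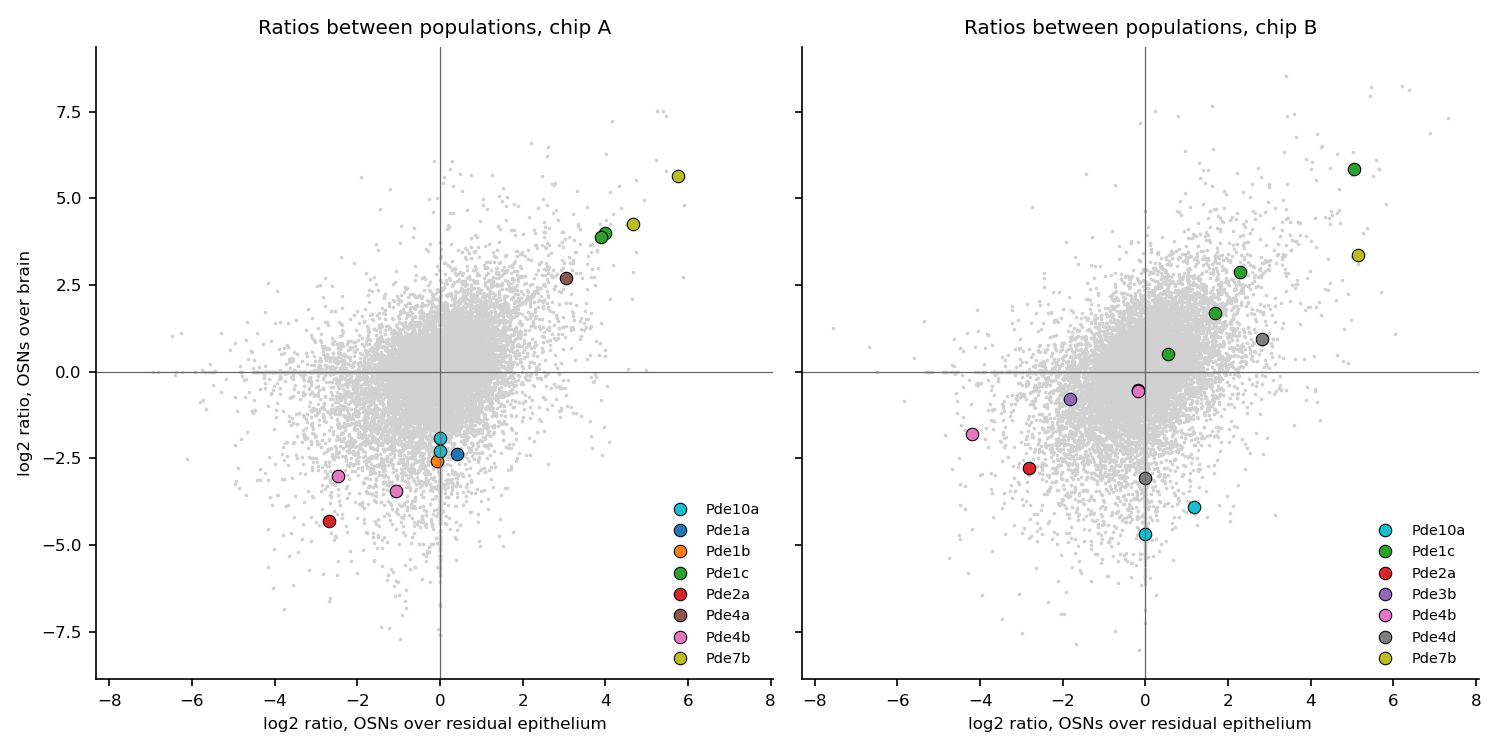
Log2 ratio of OSNs over residual epithelium (horizontal) against log2 ratio of OSNs over brain (vertical) for each probe set that reached the chip median in any population, on chip A (left) and chip B (right). Grey points are all such probe sets and coloured points are members. Pde7b, Pde4a and most of Pde1c lie at the upper right, most of Pde2a and Pde4b at the lower left, and Pde10a, Pde1a and Pde1b below the middle.

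**Figure D3:**
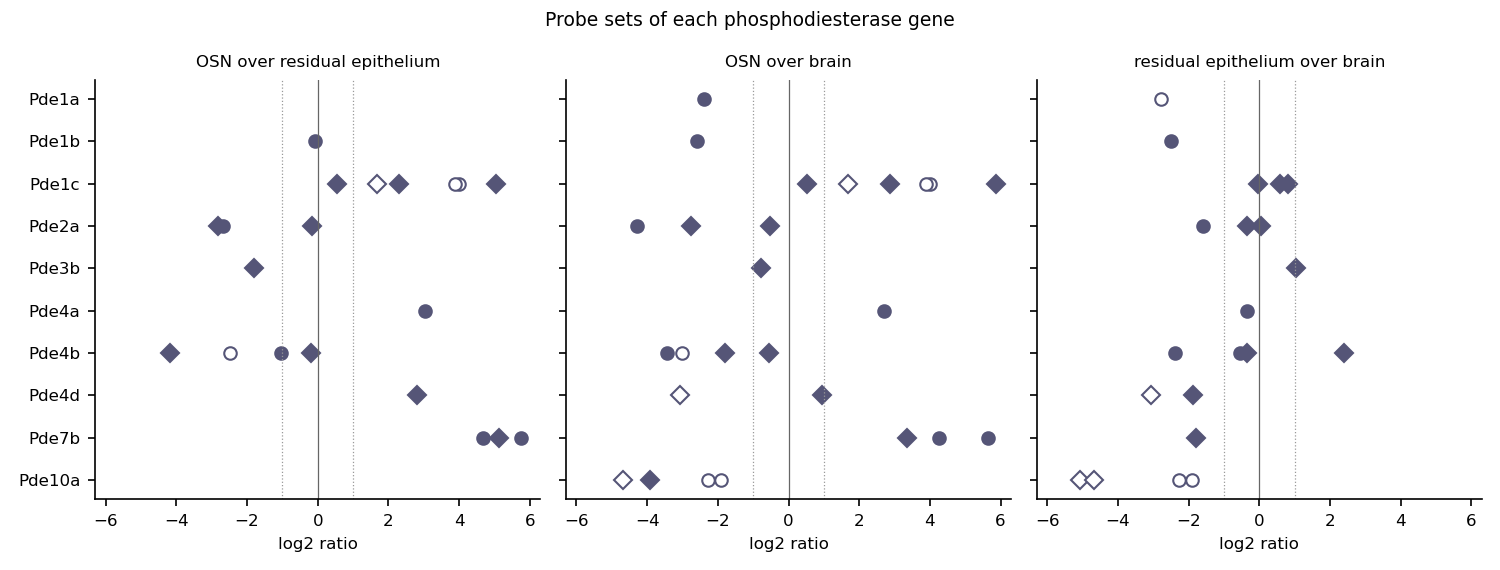
Log2 ratio of every counted probe set of the 10 genes in the 3 comparisons, circles for chip A and diamonds for chip B. Open symbols are bounds, where the lower signal was under the floor, and dotted lines mark 2-fold. The 3 Pde7b probe sets lie at the right of the OSN comparisons, from 4.66 to 5.75 against residual epithelium and from 3.36 to 5.64 against brain, while those of Pde4b lie on both sides of 0 in residual epithelium over brain, from -2.39 to 2.40.

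Genes with a pattern like that of a member were sought on the same chip by the distance between the pairs of log2 ratios, over 3 populations and so over 2 ratios. Genes whose ratios were bounds in both OSN comparisons were left out, so the numbers below do not include them. Pde7b (1445539_at) had only 1 gene within 0.5 log2 units, Ddo, at a distance of 0.25, followed by Ephx4 at 0.80. Pde4a had 12 genes within 0.5, the nearest being F8 at 0.13 and Pth2 at 0.29. Pde1c (1440374_at) had 34, the nearest being Efcab6 and 2810029C07Rik, and Pde4d (1435280_at) had 15, the nearest being Eml2 and Stxbp5l. Pde10a (1439618_at) had 7, the nearest being Nalcn and Gpr22. Pde1b had 75 and Pde1a 66, the nearest being Kcnip1 and Hapln2, and Clstn3 and Sv2a. Pde2a (1447707_s_at) had 14 with Chd7 and Nod1 nearest, Pde4b (1422474_at) 20 with Cd200 and Shfl nearest, and Pde3b 97 with 1700006J14Rik and Bbx nearest. Members with few neighbours had values far from those of most genes that were kept. Each number holds only for the 1 probe set used. Pde1c 1436251_at, with log2 ratios of 5.04 over residual epithelium and 5.86 over brain, was not searched.

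Beyond the 10 members, 14 other phosphodiesterase genes were on the arrays with 31 probe sets. Of 7 counted between OSNs and residual epithelium, 1 was at least 2-fold higher in OSNs (12.8% of all genes) and 2 were lower (18.7% of all genes). Their median log2 ratio was -0.49, beside -0.05 over all counted genes. Pde6d, a carrier of lipid-modified proteins that is also a photoreceptor phosphodiesterase subunit, was the higher one. Its signal was 5655.8 in the OSNs, 936.4 in the residual epithelium and 429.7 in the brain (1416843_at), 6.04-fold and 13.2-fold higher in OSNs. Pde7a, the relative of Pde7b, had 547.3 in the OSNs, 2183 in the residual epithelium and 1221 in the brain (1438041_at), 3.99-fold lower in OSNs than in residual epithelium. The counted probe sets of Pde7a had log2 ratios between -2.94 and -1.26. The PDE7 genes therefore went opposite ways between these arrays.

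The other lower gene was Pde11a (1432999_at), a dual-specificity enzyme, with 81.8 in the OSNs, 393.1 in the residual epithelium and 286.2 in the brain. Against brain, 1 of 8 counted genes was higher in OSNs (18.5% of all genes) and 4 were lower (21.0% of all genes). The lower ones were Pde8b (14.0-fold), Pde9a (at least 5.53-fold), Pde11a (3.50-fold) and Pde7a (2.23-fold). All but Pde7a were counted through the brain array alone, which fixes their direction. By the probe set that represented them, Pde8a, Pde12 and Pde5a stayed within 2-fold of both other populations in OSNs. Their log2 ratios over residual epithelium were -0.40, -0.49 and 0.29. The other Pde5a probe sets were past 2-fold lower in OSNs, at -1.52 and -1.49 against residual epithelium and -1.85 and -1.25 against brain. The other Pde12 probe sets were past 2-fold higher against brain, at 1.51 and 2.10, and within 2-fold of residual epithelium. The photoreceptor subunits Pde6a, Pde6b, Pde6c and Pde6h were under the floor on all 3 arrays by the probe set that represented them, and Pde3a and Pde6g were not counted.

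The genes that make and use cyclic nucleotides gave the setting. Of 13 counted olfactory transduction genes, 11 exceeded residual epithelium at least 2-fold in OSNs and 1 was lower (median log2 ratio 4.17). Over all genes, 12.8% were higher and 18.7% lower in that comparison. Adcy3, the cyclase that supplies cAMP in cilia, had 13951.9 in the OSNs, 762.3 in the residual epithelium and 590.5 in the brain (1421960_at). Of 6 counted adenylyl cyclases, Adcy3 was the 1 that was higher, and Adcy7 and Adcy1 were lower. Of 3 counted genes of the guanylyl cyclase list, none was higher and 2 (Gucy2c and Npr2) were lower, both counted through the residual array alone. Against brain all 6 counted were lower in OSNs, beside 21.0% of all genes. However, all but Nos1 were below the chip median in OSNs and were counted through the brain array alone, which fixes their direction. The 6 included Gucy1a1, a subunit of the nitric oxide receptor, with 5.1, 4.7 and 2096.6 in OSNs, residual epithelium and brain (1434141_at).

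Among targets of calmodulin, the protein that activates PDE1 enzymes, 4 of 7 counted genes exceeded residual epithelium at least 2-fold in OSNs and none was lower, beside 12.8% and 18.7% of all genes (median log2 ratio 1.19). Camk2a, a calmodulin-dependent kinase (1457311_at), was 5.31-fold higher, though its probe sets ran from -0.93 to 2.41 in log2, and Camk1 was 3.24-fold higher. Against brain none of 11 was higher in OSNs and 8 were lower, beside 18.5% and 21.0% of all genes (median -2.09). Among the lower ones, Pcp4, Nrgn, Camk1d and Camk2b were counted through the brain array alone, which fixes their direction.

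**Figure D4:**
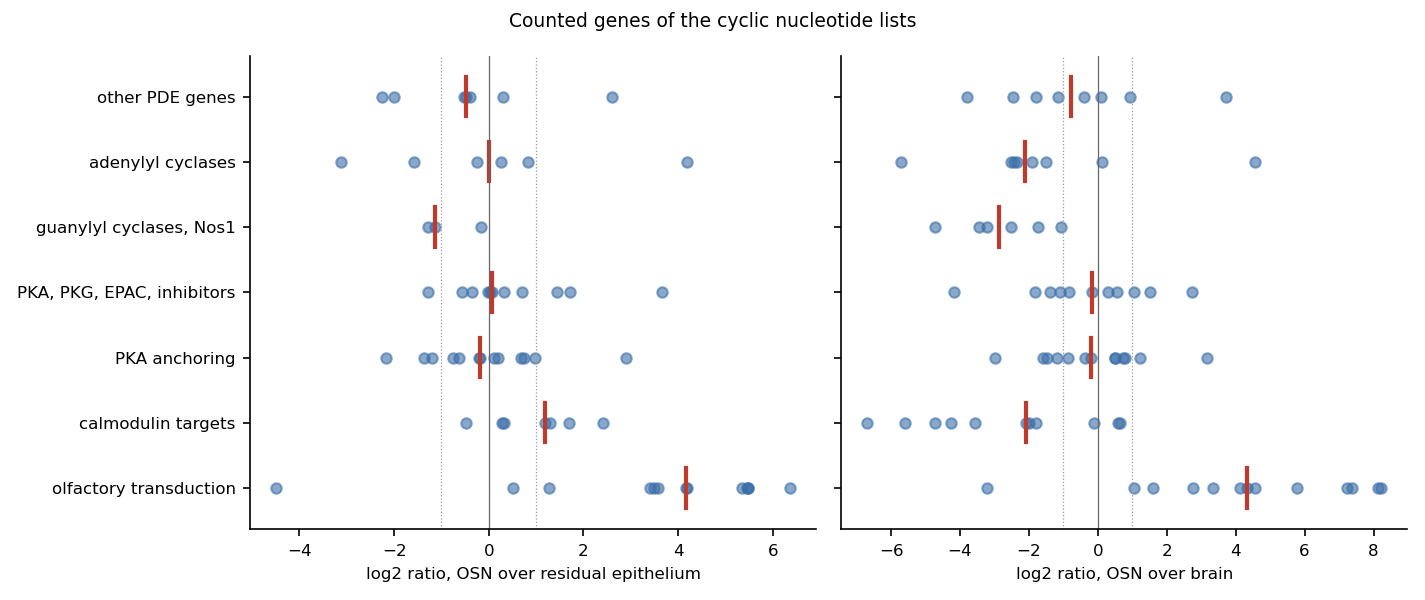
Log2 ratios of counted genes of 7 lists around cyclic nucleotide signalling, OSNs over residual epithelium (left) and OSNs over brain (right), 1 point per gene and a red bar at the list median. Dotted lines mark 2-fold. The olfactory transduction list has medians of 4.17 and 4.32, while the other phosphodiesterase genes have medians of -0.49 and -0.78.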

How the data were processed

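The files deposited by the authors hold 1 intensity per probe set and array, unlogged, for 6 single-colour arrays. The submitters' processing notes name MAS5 without a version for 5 arrays and nothing for brain on chip A. Background correction, scaling target and detection calls are not stated in those notes. With values outside percentiles 2 and 98 removed, array means ran from 499.6 to 499.9, so each array was scaled to 1 level by the authors. Median signals ran from 194.65 to 257.7. Scaling of this kind lowers other signals where some transcripts dominate the RNA. Their number limits the precision of arrays.

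The 64 control probe sets of each chip were left out. Gene names came from the platform annotation, updated by Entrez identifier from RefSeq's GRCm38.p6 table. There was 1 symbol for 35041 probe sets, several for 936 and none for 9160. Ratios were taken within a chip, floored at percentile 25, counted from the chip median and called at 2-fold. For list genes, the probe set ranking highest on its chip by mean log2 signal stood for the gene. A list gene counted through 1 array alone has the direction of its ratio fixed by that array. Named were all members, all counted other phosphodiesterases, genes at either end of each list, the nearest 2 genes to each member, and a few markers (Drd1, Tyrobp and Gucy1a1, chosen after their values were seen). The members and lists were chosen with earlier results of these data known. The ratio step was tested on simulated data with changes placed only in probe sets of high signal, so not on signals near the floor. Software was Python 3.11.15 with pandas 2.3.3, numpy 2.4.6 and, for plots, matplotlib 3.10.9. Alternatives were other floors, a pseudocount of 100, other filters and scalings, and a 3-fold call.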

Additional observations from a re-analysis of the deposited data

How the results depend on the processing

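No paired analysis was possible because each population had 1 array per chip. The counts of members at least 2-fold higher in OSNs (10 against residual epithelium and 9 against brain) stayed within 1.5 times under all 9 alternatives. With the filter at percentile 75, which counts fewer probe sets, the members lower in OSNs numbered 3 against residual epithelium in place of 6, and 7 against brain in place of 12. Members higher in residual epithelium than in brain numbered 1 in place of 2 with a pseudocount of 100, with ratios centred on the median, with scaling on shared probe sets and with a 3-fold call. No member ratio of at least 2-fold changed sign under the 6 alternatives of floor, pseudocount and scaling. The counts over the 7 pathway lists stayed within 1.5 times when each gene was taken as its probe sets' median. Scaling on shared probe sets moved the median of all counted chip B probe sets by -0.46 for residual epithelium over brain, by -0.34 for OSNs over brain and by 0.12 for OSNs over residual epithelium. On chip A it moved them by -0.04, -0.16 and -0.11. The floor at percentile 40 took 6 of 50 member ratios under 2-fold, among them Pde1c 1444386_at and Pde10a 1419390_at. The Pde4b 1422474_at call against residual epithelium was also lost with quantile normalization and with the pseudocount. Signals under the floor leave only bounds for some ratios of Pde10a, Pde1a, Pde1c, Pde4b and Pde4d.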

Other observations

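Regulators of the kinase that cAMP activates also differed between the arrays. Of 11 counted genes for protein kinases A and G and their inhibitors, 3 exceeded residual epithelium at least 2-fold in OSNs and 1 was lower, beside 12.8% and 18.7% of all genes. The 2 highest encode inhibitors of protein kinase A. Pkib (1421137_a_at) had a signal of 1192.1 in the OSNs, 94.7 in the residual epithelium and 181.1 in the brain, and Pkia (1420859_at) had 3617.8, 1101 and 1272.3. Both probe sets of each gene were on the same side. Prkar2b, a regulatory subunit, was the lower one, with 534.9, 1293.4 and 1135 (1430640_a_at).

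Among 13 counted genes for proteins that anchor protein kinase A, 1 was higher in OSNs (12.8% of all genes) and 3 were lower (18.7% of all genes), shares near those over all genes. Akap3, known from the sperm tail, had 1624.8 in the OSNs, 219.3 in the residual epithelium and 182.8 in the brain (1456591_x_at, an ending that marks probes that may bind other transcripts), and its 2 probe sets had log2 ratios over residual epithelium of 1.56 and 2.89. Akap12 was 4.48-fold lower. Drd2, a dopamine receptor that lowers cAMP, had 1838.7 in the OSNs, 73.5 in the residual epithelium and 425.8 in the brain on its only probe set, 1418950_at.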
